A study of Mus musculus with 29 samples.

Results

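The neuronal cytoskeleton genes described here are Dcx, Mapt, Map1b, Map2, Tubb3, Stmn2, Gap43, L1cam, Nefl and Nefm, 10 microtubule, growth cone and axon genes of postmitotic neurons that were chosen by name. They are 10 of the 38355 genes counted in the untreated RNA libraries and of the 48709 genes counted in the treated ones, and all 10 passed the filter on low counts in both experiments. The study deleted Smarcc1 and Smarcc2, which encode the BAF155 and BAF170 subunits of the BAF chromatin remodelling complexes, in the mouse pallium (double conditional knockout, dcKO) and measured RNA in 19 libraries of 5 groups. It also mapped H3K27me3, a histone mark of repressed genes, in 8 libraries.

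All libraries were from C57BL/6J embryonic cortex at E17.5. The first experiment holds 4 untreated libraries named C and 3 named M. The genotype label of these 7 libraries reads BAF dcKO_hGFAP-Cre throughout, although the study compares control with dcKO pallia, so the groups are called C and M below. The second experiment holds 4 wild type (WT) and 4 dcKO libraries after vehicle and 4 dcKO libraries after a Wnt inhibitor (WNTi, ICG-001). The inhibitor was injected into pregnant mice every day from E11.5. No WT library with the inhibitor was analysed here, so an effect of the inhibitor in WT cortex could not be separated. The hGFAP-Cre transgene acts in pallial radial glia and their progeny, so cells that enter the cortex from elsewhere, such as interneurons, blood vessels and microglia, should keep both genes. The H3K27me3 libraries were 4 named C and 4 named K, with the same genotype label. The labels do not say whether libraries of a group came from separate embryos, so p-values measure the spread between these libraries, which may be technical.

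Neurons that leave the cell cycle build a polarised microtubule array, which drives their migration and supports the growing axon and dendrites. Microtubule-associated proteins set how stable and how bundled these microtubules are. Tubulins form the polymer itself, and stathmins release tubulin from it. The growth cone at the axon tip reads external cues through membrane and adhesion proteins, and neurofilaments later fill the axon and set its calibre. In the fetal cortex most of these genes serve as general markers of postmitotic neurons. In bulk tissue, fewer neurons and less RNA per neuron cannot be told apart.

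The RefSeq promoter table for GRCm38.p6, the same build as mm10, held 5 of the 10 members. No entry was found for Mapt, Stmn2, Gap43, Nefl and Nefm. To show the regulatory DNA behind the members whose levels are compared below, 120 bases upstream of the most upstream RefSeq start are printed for each, shifted upstream where the nearest bases lie in an annotated exon. The Dcx stretch lies at chrX:143933312-143933431 (minus strand, 92 bases from the start) and that of Map1b at chr13:99516603-99516722 (minus strand, directly before the start). Those of Map2 and Tubb3 lie at chr1:66175153-66175272 (plus strand, 56 bases from the start) and at chr8:123411304-123411423 (plus strand, 129 bases from the start). The L1cam stretch lies at chrX:73880835-73880954 (minus strand, directly before the start). In GENCODE M21, used here for exon lengths, L1cam begins farther upstream, at chrX:73896105. The L1cam stretch therefore lies inside the gene in that annotation. Capitals mark CG dinucleotides, and each sequence runs 5′ to 3′ on the strand of the gene.
Dcx: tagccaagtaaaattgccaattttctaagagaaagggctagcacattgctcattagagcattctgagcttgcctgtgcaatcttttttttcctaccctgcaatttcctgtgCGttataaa
Map1b: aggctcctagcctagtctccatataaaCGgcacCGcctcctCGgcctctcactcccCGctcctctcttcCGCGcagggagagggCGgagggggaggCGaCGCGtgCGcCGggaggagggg
Map2: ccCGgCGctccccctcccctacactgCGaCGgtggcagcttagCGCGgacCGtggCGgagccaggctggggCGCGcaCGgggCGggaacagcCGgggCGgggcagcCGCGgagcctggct
Tubb3: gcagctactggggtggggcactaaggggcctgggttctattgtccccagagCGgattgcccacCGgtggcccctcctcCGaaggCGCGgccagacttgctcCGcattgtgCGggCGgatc
L1cam: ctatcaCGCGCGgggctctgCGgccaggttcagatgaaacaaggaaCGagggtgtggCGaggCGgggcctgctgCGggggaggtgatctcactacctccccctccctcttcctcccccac

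The Dcx stretch held 1 CG and that of Map2 held 16. Over the full 250 bases before the start, the observed number of CG divided by the number expected from base composition was 0.279 for Dcx, 0.481 for L1cam, 0.690 for Map1b, 0.732 for Tubb3 and 0.857 for Map2. The median over all 32851 promoters of the table was 0.374, and 34.0% of them lay above 0.6, as Map1b, Map2 and Tubb3 did. The E-box CAGATG, a form bound by proneural factors, occurred on either strand in the 250 bases of L1cam and Map1b and in 14.4% of all promoters. GGGCGG, the core of the Sp1 motif, occurred in L1cam, Map1b, Map2 and Tubb3 and in 32.7% of all promoters. TATAAA occurred in Dcx and Map1b and in 12.4% of all promoters. These matches describe letters in the window and were not tested as sites.

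Total counts were 11946658 to 28391046 per library in the untreated experiment and 12514443 to 26600594 in the treated one. Levels are given in CPM, read counts scaled to the TMM-normalised size of each library. Smarcc1 and Smarcc2 check the labels. Smarcc1 was at 128 and 135 CPM in M replicates 3 and 4 and Smarcc2 at 399 and 398 CPM, against 247 to 269 and 654 to 714 CPM in the C libraries. The library labelled M replicate 2, the shallowest of its experiment, had 245 CPM of Smarcc1 and 670 CPM of Smarcc2, near the C level. Likewise, the library labelled dcKO vehicle replicate 2 had 242 and 692 CPM, and those labelled dcKO WNTi replicates 1 and 2 had 214 and 644 CPM and 252 and 695 CPM. The WT vehicle means were 266 and 731 CPM. These 4 libraries, nearer to the control mean than to the lowest dcKO library for both genes, go against their labels, and results that change without them are given both ways. Replicate 4 of dcKO WNTi was kept but was intermediate, with 173 and 586 CPM, against 133 to 140 and 416 to 439 CPM in the other treated dcKO libraries kept. The same numbers also mark alike libraries in both experiments. Over 15220 genes, the deviation of each C library from its group mean correlated with that of the WT vehicle library of the same number at r = 0.204 to 0.546, and M with dcKO vehicle at r = 0.592 to 0.789. For example, Gap43 was at 630, 552, 498 and 644 CPM in C and at 674, 552, 497 and 649 CPM in WT vehicle replicates 1 to 4. Whether both experiments used separate embryos is not stated, and they are not treated as independent below.

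Divided by exon length, the members spanned a wide range of expression in E17.5 pallium. Tubb3, the neuron-specific β-tubulin, led in all 5 groups with 938 ± 55.7 CPM per kb (SD, n = 4) in C. Gap43, a membrane protein of growth cones, followed at 381 ± 44.8 and Mapt, which encodes tau, at 312 ± 17.3 CPM per kb (SD, n = 4 each). Below them came Dcx at 250 ± 9.03, Stmn2 at 225 ± 13.3, Map1b at 221 ± 17.9, Map2 at 134 ± 10.2 and L1cam at 97.7 ± 3.43 CPM per kb (SD, n = 4 each). The neurofilament genes were lowest, with 20.2 ± 3.36 for Nefl and 16 ± 1.43 CPM per kb for Nefm (SD, n = 4 each). In C, the ranges of Stmn2 and Map1b overlapped and so did those of Nefl and Nefm, whereas each other pair of neighbours in this order was separate. In the treated groups, Stmn2, Dcx and Map1b overlapped in turn, as did Gap43 with Mapt and Map2 with L1cam. The order was otherwise kept, except that Stmn2 stood above Dcx in the treated groups and Map1b marginally above Stmn2 in M.

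The Nefl level carries a limit. Nefl lies on the plus strand at chr14:68083863-68089095, inside the span of Nefm on the minus strand (chr14:68082590-68124846), and 1108 exon bases are shared. The TruSeq RNA v2 kit does not mark strand, so reads from these bases cannot be told apart. Map2 shares 124 exon bases with Gm10558 and L1cam 100 with Arhgap4, and the other 6 members share none with another gene.

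The comparison of M with C asks what the deletion does in the untreated pallium. With edgeR's quasi-likelihood test, 0 of the 10 members passed a Benjamini-Hochberg adjusted p of 0.05 in either direction, where 0.00634% of the 15770 genes tested were higher and 0% lower. Before adjustment, 6 of the 10 members had p under 0.05, all lower, against 16% of all genes in either direction. The study's own limit was an unadjusted p of 0.01, and 3 members passed it, all lower, where 2.8% of all genes passed it as lower and 2.66% as higher. These 3 were L1cam, Stmn2 and Map1b. The median log2 difference of the members was -0.20, beside 0.00 over all genes tested. Dcx, Mapt, Map1b, Stmn2 and L1cam also stand in a list of lower neurogenesis genes that the study drew up on these libraries, so their direction is not independent evidence.

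**Figure D1:**
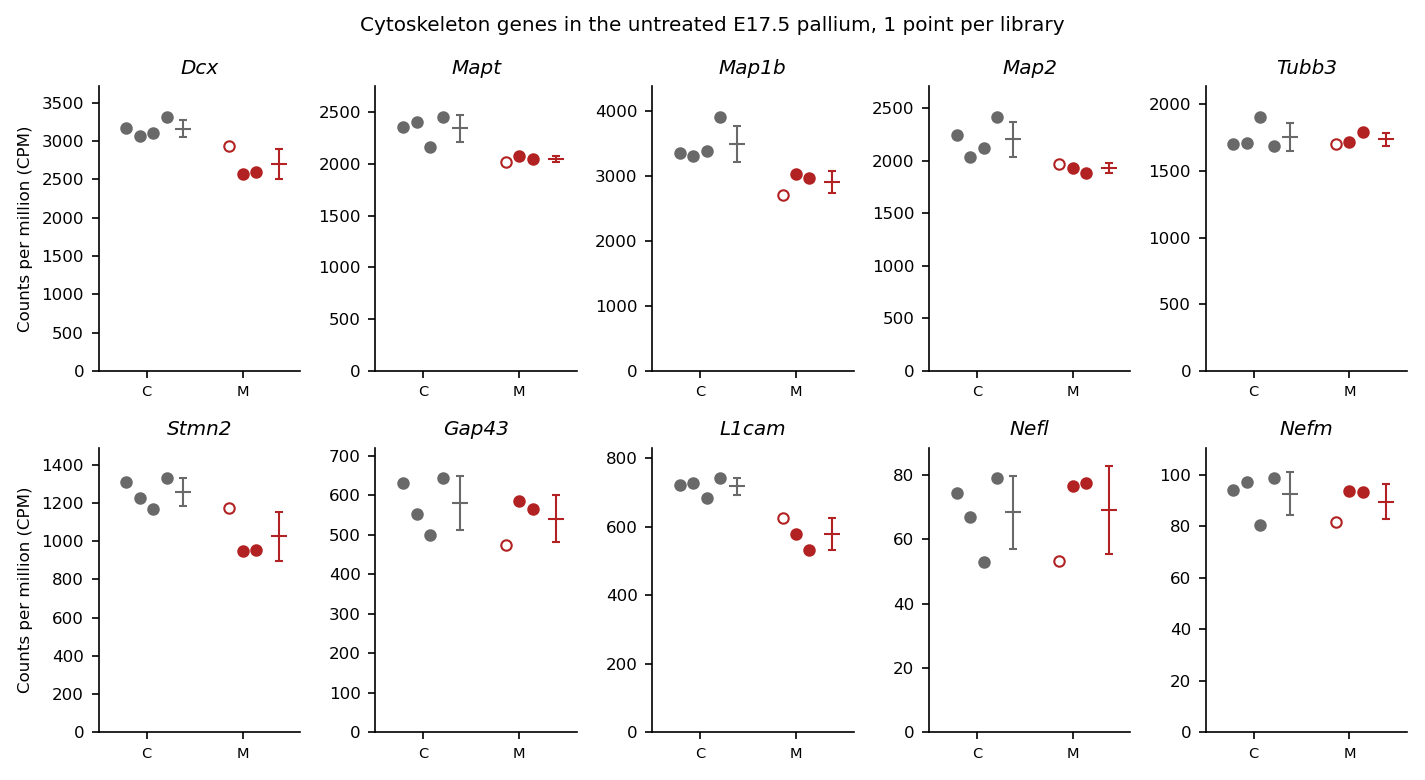
CPM of the 10 genes in the 4 C and 3 M libraries, 1 point per library, with the group mean and SD beside the points. The open point is the library labelled M replicate 2, and the M libraries of Dcx, Mapt, Map1b, Map2 and L1cam lie below all C libraries.

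Among the microtubule-associated proteins, Dcx, which encodes doublecortin and is needed for neuronal migration, was at 3163, 3058, 3098 and 3318 CPM in C replicates 1 to 4 and at 2930, 2571 and 2594 CPM in M replicates 2 to 4. All 3 M libraries lay below the lowest C library, and the highest of them was the one with near-control Smarcc1. The difference was -0.23 (log2, SE 0.07, edgeR adjusted p = 0.190), or -14.6%. Mapt was at 2362, 2410, 2162 and 2459 CPM in C and at 2017, 2079 and 2047 CPM in M, again without overlap (log2 -0.20, SE 0.07, edgeR adjusted p = 0.215). Map1b, a long microtubule-binding protein of growing axons, was at 3362, 3321, 3387 and 3922 CPM in C and at 2717, 3041 and 2976 CPM in M. The groups did not overlap, but the lowest M library was replicate 2, the one with near-control Smarcc1. The difference was -0.26 (log2, SE 0.08, edgeR adjusted p = 0.181). Map2, the main such protein of dendrites, was at 2246, 2035, 2125 and 2422 CPM in C and at 1975, 1929 and 1881 CPM in M (log2 -0.20, SE 0.07, edgeR adjusted p = 0.254).

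Tubb3 showed no such order. It was at 1706, 1710, 1908 and 1687 CPM in C and at 1706, 1716 and 1795 CPM in M, and the M libraries lay inside the C range. The difference was -0.01 (log2, 95% CI -0.17 to 0.14, edgeR adjusted p = 0.955), so a decrease of the size seen for L1cam lay outside its interval. Stmn2, a stathmin of axons, was at 1307, 1226, 1169 and 1330 CPM in C and at 1174, 949 and 955 CPM in M. Replicate 2 of M overlapped C, and the other two M libraries lay below all C libraries (log2 -0.29, SE 0.09, edgeR adjusted p = 0.181).

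Gap43 was at 630, 552, 498 and 644 CPM in C and at 474, 585 and 564 CPM in M, and the groups overlapped (log2 -0.10, SE 0.11, edgeR adjusted p = 0.682). L1cam, an adhesion molecule of axons and growth cones, was at 722, 726, 683 and 742 CPM in C and at 624, 578 and 532 CPM in M. All M libraries were lower, and L1cam had the smallest p of the 10 members (log2 -0.31, SE 0.07, unadjusted p = 0.00130, edgeR adjusted p = 0.127). The neurofilament genes overlapped fully between the groups. Nefl, the light subunit, was at 52.9 to 78.9 CPM in C and 53.2 to 77.3 CPM in M (log2 0.02, 95% CI -0.36 to 0.41). Nefm, the medium subunit, was at 80.5 to 98.6 CPM in C and 81.5 to 93.5 CPM in M (log2 -0.05, 95% CI -0.23 to 0.14). In all, 5 of the 10 members were lower in every M library than in every C library, where 6.21% of all genes were.

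Without the library labelled M replicate 2, an alternative that leaves 2 M libraries, edgeR called 892 genes higher and 1102 lower, and 3 members fell. Stmn2 fell by 0.40 (log2, edgeR adjusted p = 0.00592), L1cam by 0.37 (adjusted p = 0.00564) and Dcx by 0.29 (adjusted p = 0.0165). The other 7 members were not called, with Map1b at -0.22 and an adjusted p of 0.113. DESeq2 on all 7 libraries called Dcx, Mapt, Map1b, Stmn2 and L1cam lower, with adjusted p from 0.00168 for L1cam to 0.0457 for Stmn2, among 264 genes higher and 314 lower. The calls thus depend on the tool and on 1 library. The length-related measure described below lay between -0.06 and 0.11 in these libraries. A fit of all 7 libraries with it as a term called 0 members, as the main fit did. L1cam went from -0.31 to -0.29, Stmn2 from -0.29 to -0.28 and Dcx from -0.23 to -0.22. Map1b went from -0.26 to -0.21 and Mapt from -0.20 to -0.16.

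Other genes of the same machinery were read from lists of named genes, and edgeR called none of them in either direction. Over all genes tested, 49.0% were lower in M on average. An unadjusted p of 0.01 was passed by 2.8% of all genes as lower and by 2.66% as higher. Of 11 tubulins other than Tubb3, 7 were lower in M on average and 0 passed an unadjusted p of 0.01, with a median log2 difference of -0.03. The γ-tubulin Tubg1 was at 0.23 (SE 0.08, edgeR adjusted p = 0.219) and Tuba4a at -0.28 (SE 0.15, edgeR adjusted p = 0.414). Of 25 further microtubule-associated proteins, 19 were lower on average and 3 passed an unadjusted p of 0.01, all lower, with a median of -0.10. These were Map4 (log2 -0.23, SE 0.06), Dpysl3 (-0.31, SE 0.08), a partner of tubulin in growth cones, and Camsap2 (-0.17, SE 0.05), which holds microtubule minus ends. Of 19 motors and regulators, 3 were lower and 1 higher at that limit. The lower ones were the kinesins Kif5a, Kif1b and Kif21b (log2 -0.22, -0.22 and -0.38), and the higher one was Kif21a (log2 0.41, SE 0.08, edgeR adjusted p = 0.110).

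Of 21 further growth cone and axon adhesion genes, 15 were lower on average, where 49.0% of all genes were. An unadjusted p of 0.01 was passed by 3 of them, all lower, where 2.8% of all genes passed it as lower. The list's median was -0.07. The 3 genes were the adhesion genes Cntn1 (log2 -0.50, SE 0.13) and Nrcam (-0.25, SE 0.07) and the ankyrin gene Ank2 (-0.26, SE 0.08). Among the other neuronal intermediate filaments, Ina was at -0.25 (SE 0.06) and Prph at -1.18 (SE 0.28), both under an unadjusted p of 0.01, and Nefh at -0.09 (SE 0.20). Of 14 pan-neuronal genes outside the cytoskeleton, 11 were lower on average, and Rbfox3 (log2 -0.43, SE 0.09) and Thy1 (-0.64, SE 0.14) passed the same limit. Their summed level was 5299 to 5679 CPM in C and 4992 to 5205 CPM in M, without overlap.

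Markers of other cells moved with these groups, and their part in the members' differences was not tested. The summed level of 6 cortical identity genes was 1591 to 2116 CPM in C, 980 and 1123 CPM in M replicates 3 and 4 and 2244 CPM in M replicate 2. That of 6 interneuron markers was 527 to 619 CPM in C, 765 and 694 CPM in M replicates 3 and 4 and 449 CPM in M replicate 2. The 5 endothelial markers summed to 190 to 221 CPM in C and to 182, 146 and 135 CPM in M replicates 2 to 4, below every C library. The 8 radial glia markers summed to 1624 to 1847 CPM in C and to 1800 to 1835 CPM in M. No gene of the 12 marker lists was at 0 in all libraries of a group.

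The vehicle libraries put the same question to WT and dcKO cortex. edgeR called 0 of the 10 members, where 0.00611% of the 16372 genes tested were higher and 0% lower. An unadjusted p of 0.01 was passed by 0 members, by 1.29% of all genes as lower and by 1.56% as higher. Before adjustment, 2 members had p under 0.05, both lower, against 9.46% of all genes in either direction. The members' median log2 difference was -0.19, beside 0.00 over all genes. DESeq2 also called 0 members, with 85 genes higher and 35 lower.

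Markers of other cells differed between these libraries too, and their part in the members' differences was not tested. The endothelial markers summed to 184 to 212 CPM in WT and to 135 to 180 CPM in dcKO vehicle, without overlap. The interneuron markers summed to 539 to 654 CPM in WT, to 754, 810 and 748 CPM in dcKO vehicle replicates 1, 3 and 4 and to 474 CPM in replicate 2. The cortical identity genes summed to 1604 to 2278 CPM in WT, to 978, 1071 and 1237 CPM in dcKO vehicle replicates 1, 3 and 4 and to 2190 CPM in replicate 2. The 14 pan-neuronal genes outside the cytoskeleton summed to 5242 to 5782 CPM in WT and to 4763 to 5080 CPM in dcKO vehicle, without overlap.

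**Figure D2:**
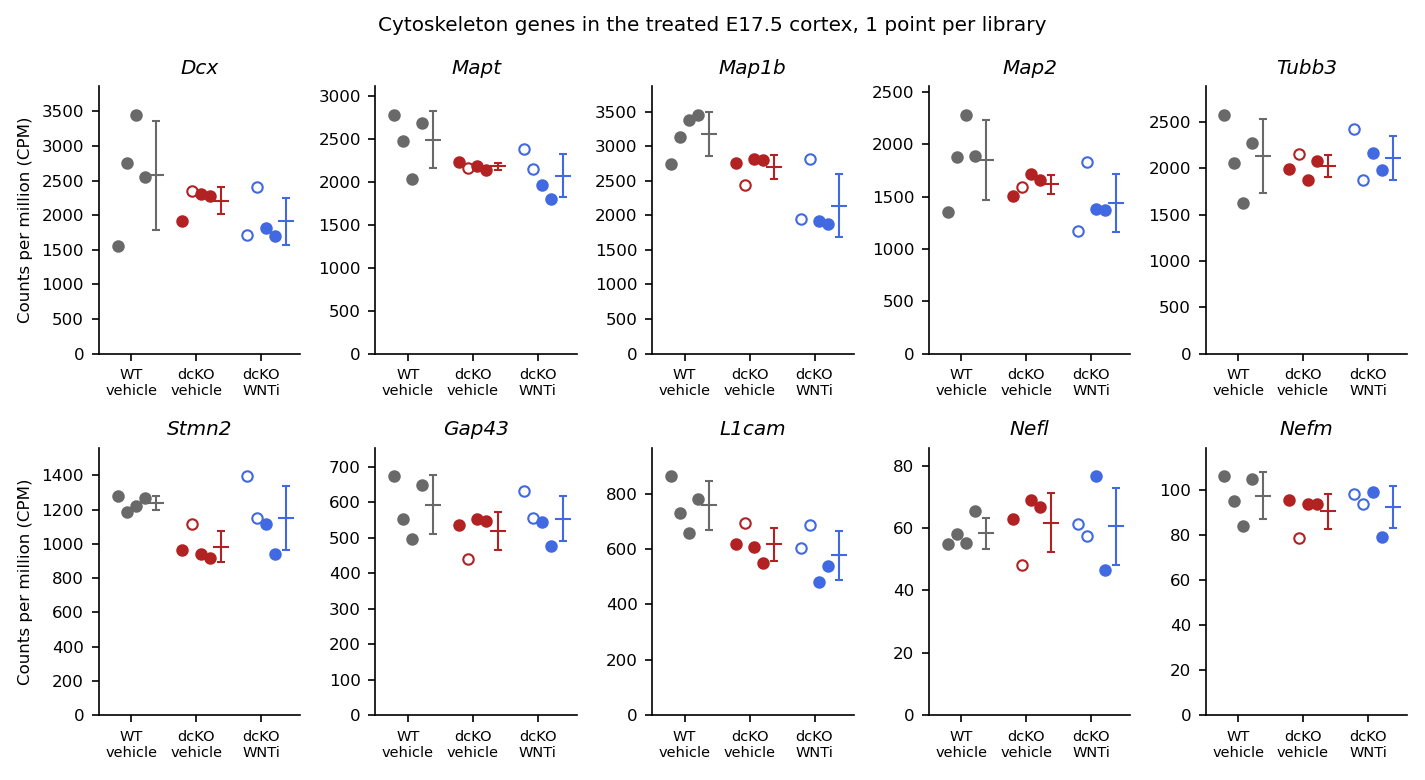
CPM of the 10 genes in WT vehicle, dcKO vehicle and dcKO WNTi libraries, 4 each, 1 point per library, with the group mean and SD beside the points. Open points are the 3 dcKO libraries with Smarcc1 and Smarcc2 near the WT level, and only Stmn2 shows dcKO vehicle libraries that all lie below WT.

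Stmn2 was at 1281, 1187, 1223 and 1265 CPM in WT vehicle and at 964, 1114, 939 and 916 CPM in dcKO vehicle replicates 1 to 4. All dcKO vehicle libraries lay below WT, and the highest was replicate 2, with near-WT Smarcc1 (log2 -0.33, SE 0.11, unadjusted p = 0.0116, edgeR adjusted p = 0.367). Stmn2 was the single member without overlap, where 2.57% of all genes were lower in every dcKO library. L1cam was at 863, 728, 656 and 781 CPM in WT and at 618, 694, 605 and 551 CPM in dcKO vehicle. Replicate 2 again was the one that overlapped WT (log2 -0.30, SE 0.12, edgeR adjusted p = 0.463).

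Dcx varied more in WT than between genotypes. It was at 1550, 2750, 3453 and 2545 CPM in WT and at 1914, 2348, 2299 and 2276 CPM in dcKO vehicle (log2 -0.22, SE 0.20, edgeR adjusted p = 0.850). The coefficient of variation of Dcx was 30.5% in WT and 9.02% in dcKO vehicle, against 3.62% in untreated C. Map2 was at 1353, 1876, 2282 and 1888 CPM in WT and at 1506, 1594, 1720 and 1654 CPM in dcKO vehicle, with the same WT libraries at the bottom and the top (log2 -0.19, SE 0.16). Map1b was at 2741, 3138, 3379 and 3456 CPM in WT and at 2756, 2440, 2809 and 2800 CPM in dcKO vehicle, and WT replicate 1 lay among the dcKO libraries (log2 -0.23, SE 0.13, edgeR adjusted p = 0.627).

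Mapt was at 2781, 2471, 2028 and 2679 CPM in WT and at 2232, 2161, 2186 and 2137 CPM in dcKO vehicle. The lowest WT library, replicate 3, was below all of dcKO vehicle, and it was the one with the most Dcx (log2 -0.19, SE 0.11). Tubb3 ran the same way, at 2579, 2057, 1622 and 2276 CPM in WT and at 1994, 2153, 1875 and 2081 CPM in dcKO vehicle (log2 -0.07, SE 0.13). Gap43 was at 674, 552, 497 and 649 CPM in WT and at 536, 441, 553 and 547 CPM in dcKO vehicle, with overlap (log2 -0.19, SE 0.12). Nefl and Nefm were at 54.8 to 65.5 and 84.0 to 106 CPM in WT and at 48.1 to 69.1 and 78.8 to 95.6 CPM in dcKO vehicle (log2 0.08 and -0.11, SE 0.15 and 0.11).

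Without the 3 dcKO libraries that had near-WT Smarcc1 and Smarcc2, 416 genes were called higher and 562 lower in dcKO vehicle, and Stmn2 fell by 0.40 (log2, edgeR adjusted p = 0.0253). L1cam was then at -0.36 (adjusted p = 0.0928) and was not called. Leaving out dcKO vehicle replicate 2 alone gave 222 and 340 genes and no member, with Stmn2 at -0.40 and an adjusted p of 0.0945.

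The difference by genotype was also compared between the experiments. The members' differences in the untreated experiment minus those after vehicle were -0.07 to 0.08 on the log2 scale, and edgeR gave an adjusted p of 0.999925 for each. Over all genes 0% passed an adjusted p of 0.05, and 0.501% an unadjusted p of 0.05. That is far fewer genes than this limit would pass without any difference, so the test was conservative. The high p-values do not show that the differences by genotype were the same. Since same-numbered libraries of the experiments resemble each other, the values compared here do not come from experiments shown to be separate.

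The inhibitor was given to ask whether less Wnt signalling changes the dcKO cortex. Between dcKO WNTi and dcKO vehicle, edgeR called 0 of the 10 members, where 0.0428% of all genes were higher and 0.0122% lower. Again 0 members had an unadjusted p under 0.01, where 2.44% of all genes did as higher and 2.2% as lower. Map1b alone passed an unadjusted p of 0.05, against 15.8% of all genes. DESeq2 called 0 members, with 174 genes higher and 165 lower. The median over the members was -0.05, beside 0.01 over all genes.

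**Figure D3:**
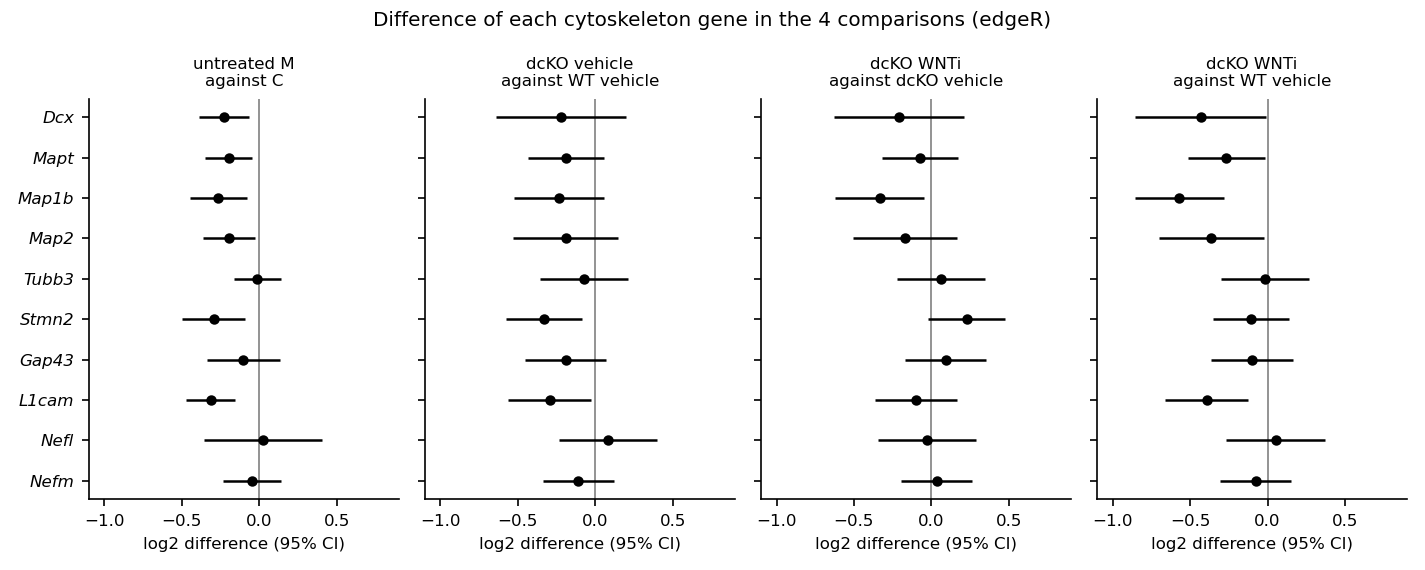
Log2 difference of each gene in the 4 comparisons, with its 95% confidence interval from edgeR. Tubb3, Gap43, Nefl and Nefm have intervals that include 0 in each comparison, and Map1b in WNTi against WT lies farthest from 0, at -0.57. The comparisons of the treated groups share libraries.

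Map1b was at 1948, 2821, 1923 and 1876 CPM in WNTi replicates 1 to 4, against 2756, 2440, 2809 and 2800 CPM in dcKO vehicle. Replicates 1, 3 and 4 lay below all vehicle libraries and replicate 2, with near-WT Smarcc1, lay above them (log2 -0.33, SE 0.13, edgeR adjusted p = 0.264). Stmn2 was at 1395, 1152, 1114 and 939 CPM in WNTi, against 964, 1114, 939 and 916 CPM in vehicle, and the groups overlapped (log2 0.23, SE 0.11, edgeR adjusted p = 0.352). Dcx was at 1709, 2414, 1814 and 1700 CPM in WNTi (log2 -0.21, SE 0.20) and Map2 at 1172, 1832, 1383 and 1370 CPM (log2 -0.17, SE 0.16). In both, replicate 2 lay above all vehicle libraries and the other WNTi libraries below all of them.

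The other members differed less. L1cam was at 604, 685, 479 and 538 CPM in WNTi (log2 -0.10, SE 0.12), Mapt at 2385, 2150, 1958 and 1795 CPM (-0.07, SE 0.11) and Gap43 at 633, 557, 546 and 477 CPM (0.09, SE 0.12). Tubb3 was at 2422, 1874, 2170 and 1984 CPM (log2 0.06, SE 0.13). Each of these groups overlapped dcKO vehicle. Nefl and Nefm were at 46.7 to 76.7 and 79.2 to 99.1 CPM (log2 -0.03 and 0.03). No member was lower in every WNTi library than in every vehicle library, where 4.03% of all genes were. Without WNTi replicate 2 alone, Map1b fell by 0.50 (log2, edgeR adjusted p = 0.0343). Without all 3 libraries with near-WT Smarcc1 and Smarcc2, it was at -0.55 with an adjusted p of 0.0592 and was not called.

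Against WT vehicle, the dcKO WNTi libraries also had 0 members called by edgeR, where 0.0611% of all genes were higher and 0.0366% lower. Here 2 members had an unadjusted p under 0.01, both lower, where 3.71% of all genes did as lower and 3.01% as higher. With p under 0.05 before adjustment there were 5 members, all lower, against 19.8% of all genes. Map1b was at -0.57 (log2, SE 0.13, unadjusted p = 0.000874, edgeR adjusted p = 0.0812) and L1cam at -0.39 (SE 0.12, unadjusted p = 0.00696, edgeR adjusted p = 0.133). For both, WNTi replicate 2 lay inside the WT range and the other WNTi libraries below it. Dcx (log2 -0.43, SE 0.20), Map2 (-0.36, SE 0.16) and Mapt (-0.27, SE 0.11) had adjusted p from 0.224 to 0.243, and Tubb3, Stmn2, Gap43, Nefl and Nefm lay between -0.11 and 0.05. No member was lower in every WNTi library than in every WT library, where 4.02% of all genes were. DESeq2 called Map1b (adjusted p = 0.00553) and L1cam (adjusted p = 0.0478) lower, among 319 genes higher and 464 lower. Without the libraries with near-WT Smarcc1 and Smarcc2, which leaves WNTi replicate 3 and the intermediate replicate 4, edgeR called the same pair. Map1b then fell by 0.74 (log2, adjusted p = 0.00636) and L1cam by 0.57 (adjusted p = 0.0238), among 448 genes higher and 793 lower. Leaving out WNTi replicate 2 alone also called both (adjusted p = 0.00432 and 0.0304), and leaving out WT replicate 1 alone called Map1b (adjusted p = 0.0487). The interneuron markers summed to 690 to 896 CPM in WNTi, above every WT library, and the 6 upper-layer neuron markers to 1319 to 1420 CPM, below the 1426 to 1782 CPM of WT. The part of these cells was not tested.

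Among the related genes in this comparison, 0 were called. Over all genes, 3.71% had an unadjusted p under 0.01 as lower. With p under 0.01 before adjustment, 4 of 25 further microtubule-associated proteins were lower, among them Mapre2, a plus-end binding protein (log2 -0.43, SE 0.08, edgeR adjusted p = 0.0569), and Map4 (-0.31, SE 0.08). So were 4 of 19 motors and regulators, with Kif5a at -0.36 (SE 0.10) and Kif1b at -0.47 (SE 0.12), and 4 of 21 growth cone and adhesion genes. In the last group Cntn1 was at -0.70 (SE 0.14, edgeR adjusted p = 0.0569), Nrcam at -0.50 (SE 0.12) and Ank3 at -0.66 (SE 0.16). Of the 11 tubulins 0 passed this limit. The lists' medians were -0.03 for tubulins, -0.18 for microtubule-associated proteins, -0.18 for motors and regulators and -0.14 for growth cone genes, beside 0.01 over all genes.

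In the vehicle comparison Cntn1 (log2 -0.55, SE 0.13, edgeR adjusted p = 0.233) was the single growth cone gene under an unadjusted p of 0.01. Of the tubulins, motors and other microtubule-associated proteins, 0 passed it. In WNTi against dcKO vehicle, that limit was passed by the adhesion gene Ncam2 (log2 -1.03, SE 0.30) and by Ank3 (-0.48, SE 0.16), both lower, and by 0 tubulins, motors or other microtubule-associated proteins. Choroid plexus markers differed between the same libraries. Their summed level over 6 genes was 846, 163, 484 and 11.1 CPM in WNTi replicates 1 to 4, 6.68 to 10.8 CPM in dcKO vehicle and 6.29 to 128 CPM in WT. Ttr, 1 of these 6 genes, was at 803, 147, 448 and 4.03 CPM in WNTi. The part of this tissue in the members' differences was not tested.

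In the treated libraries, Dcx, Map1b and Map2, the members with the most exon bases, followed a measure of transcript length. It is the median log2 deviation of 5664 genes with at least 5000 exon bases minus that of 1123 genes with at most 2000. The measure was -0.51, 0.16, -0.34 and -0.11 in WNTi replicates 1 to 4, -0.15, 0.18, 0.29 and 0.13 in WT and 0.03 to 0.17 in dcKO vehicle. Over the 12 treated libraries, its Pearson correlation with log2 CPM was 0.90 for Map2 (16449 exon bases), 0.83 for Map1b (15846) and 0.79 for Dcx (12647). It was -0.68 for Tubb3 (1868 exon bases) and -0.32 to 0.34 for the other 6 members. Of these 6, Mapt (7531 exon bases), L1cam (7347), Nefm (5782) and Stmn2 (5602) also count as long, at 0.0057, 0.34, -0.24 and -0.32. Gap43, with 1523 exon bases, was at -0.31. These are descriptions over libraries that share groups and runs.

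**Figure D4:**
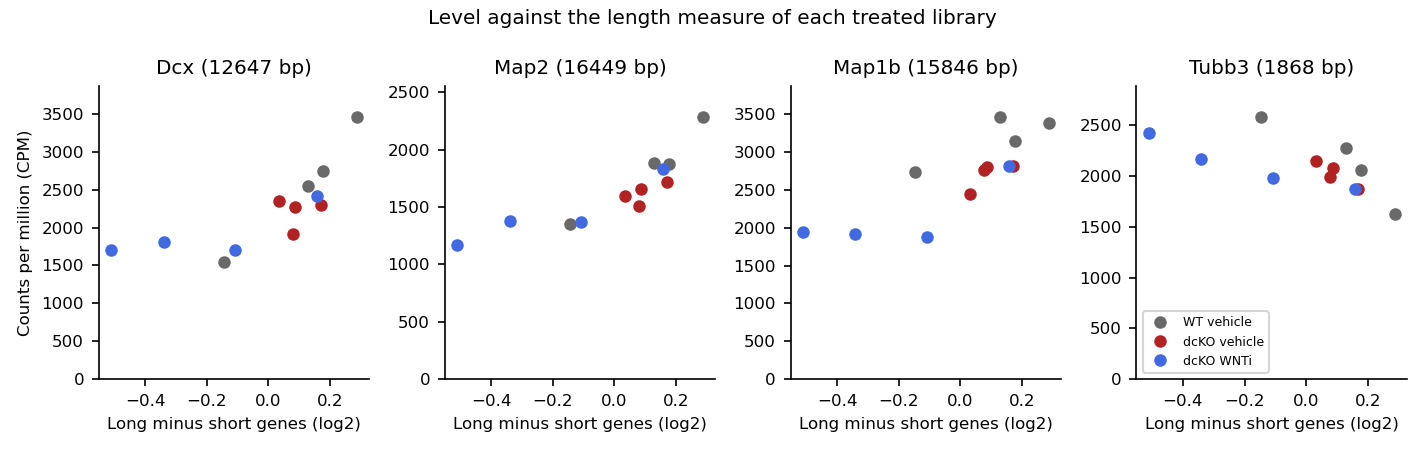
CPM of Dcx, Map2, Map1b and Tubb3 against the length measure (log2, long minus short transcripts) in the 12 treated libraries, coloured by group, with exon bases above each panel. Dcx, Map2 and Map1b are higher in libraries with a high measure, whereas Tubb3 is lower.

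With the measure as a term in the fit, an alternative chosen after the data were seen, the difference of WNTi from WT went from -0.43 to -0.03 for Dcx and from -0.36 to -0.02 for Map2 on the log2 scale. That of Map1b went from -0.57 to -0.34 (edgeR adjusted p = 0.301), and L1cam was at -0.39 in both fits. The other members became lower with the term. Mapt went from -0.27 to -0.38, Tubb3 from -0.01 to -0.25 and Stmn2 from -0.11 to -0.23. Gap43 went from -0.10 to -0.22, Nefm from -0.08 to -0.17 and Nefl from 0.05 to -0.02. With the term, 0 members were called in either direction, as in the main fit. Against dcKO vehicle, Map1b went from -0.33 to -0.13 with the term (edgeR adjusted p = 0.683). The measure moves with the treatment group, so the inhibitor and the length effect cannot be told apart for Dcx, Map2 and Map1b. Dcx, Map2 and Tubb3 also differed most between same-numbered libraries of the 2 experiments. The ratio of treated to untreated CPM was 0.490 to 1.11 for Dcx, 0.602 to 1.07 for Map2 and 0.850 to 1.51 for Tubb3 over 7 pairs. It was 0.738 to 1.04 for Nefl, 0.815 to 0.998 for the long Map1b, 0.949 to 1.05 for Stmn2 and 0.930 to 1.07 for Gap43. Levels were set across tables that were made separately.

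H3K27me3 peaks give a second readout at the members' starts. Within 2000 bp of a start, Nefl had a peak in 8 of 8 libraries and Nefm in 6 of 8. Mapt had a peak in 2, Tubb3, Stmn2 and L1cam in 1, and Dcx, Map1b, Map2 and Gap43 in 0. Thus 3 of the 10 members had a peak in at least 2 libraries, near the 26.4% of 21938 protein-coding genes that did. A region without a peak may still hold signal under the authors' limit.

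**Figure D5:**
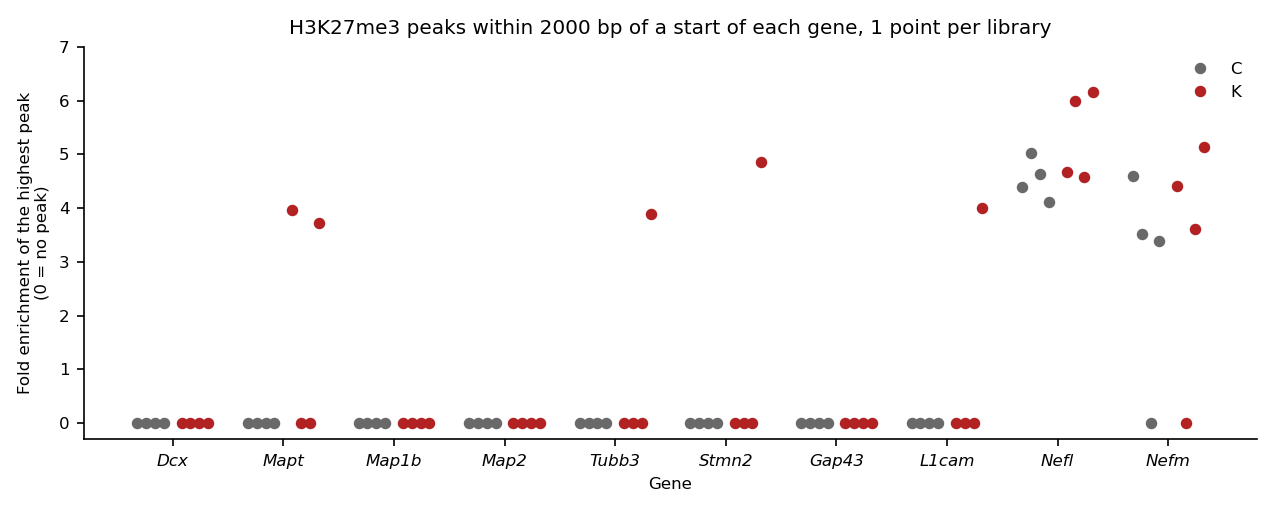
Fold enrichment over input of the highest H3K27me3 peak within 2000 bp of a start of each gene, 1 point per library, 4 C and 4 K, with 0 where no peak was listed. Nefl has a peak in all 8 libraries, and the points of Tubb3, Stmn2 and L1cam above 0 are 1 K library.

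The fold enrichment at Nefl was 4.39, 5.03, 4.64 and 4.12 in C replicates 1 to 4 and 4.67, 6.00, 4.58 and 6.17 in K. K replicates 2 and 4 were above all C libraries, and the groups overlapped (log2 0.23, SE 0.76, limma adjusted p = 0.999917). At Nefm it was 4.59, 3.51 and 3.38 in C replicates 1, 2 and 4 and 4.42, 3.60 and 5.14 in K replicates 1, 3 and 4, with no peak in C replicate 3 and K replicate 2 (log2 0.15, SE 0.91). The Mapt peaks were in K replicates 1 and 4, at 3.96 and 3.72, and no C library had one (log2 0.97, SE 0.69, limma adjusted p = 0.999917). Tubb3, Stmn2 and L1cam had theirs in K replicate 4, at 3.89, 4.86 and 4.0. That library had 46000 peaks, against 6674 to 28659 in the others. Usable depth also differed between libraries. Tags kept were 2806857 and 2420911 in C replicates 1 and 3 and 3969109 and 3386488 in K replicates 1 and 2. The other libraries kept 8898443 to 28335352, so peak presence, width and fold enrichment were compared at unlike depth. limma called 0% of the 8868 genes tested higher and 0% lower, with 29 genes at an unadjusted p under 0.05. That is far fewer genes than this limit would pass without any difference, so the test was conservative. The lack of calls does not show that the mark was unchanged.

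The stretch that the Nefl peaks of all 8 libraries share lies at chr14:68081669-68082155, 1708 to 2194 bases before the Nefl start and 435 bases beyond the end of Nefm. Of its 487 bases, 68 lie in runs of at least 10 CT or CA units, and it holds 3 CG. The Nefl start itself was under a peak in 6 libraries, 3 C and 3 K, and the Nefm start in 3, 1 C and 2 K. The other 3 neuronal intermediate filament genes, Ina, Prph and Nefh, also each had a peak near a start in at least 2 libraries. Of the related lists, 3 of 11 tubulins, 8 of 25 microtubule-associated proteins, 3 of 19 motors and regulators and 5 of 21 growth cone genes had one. Nefl and Nefm had a peak near a start in most libraries and were the lowest members per exon length. Whether the mark and the level are related was not tested. Neither RNA nor the mark passed its test between the groups at these genes, and the limma test was conservative, as given above.

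The genes whose level was most like that of the members were taken over the 12 treated libraries, by Pearson correlation with the mean of the members' z-scored log2 CPM. They were Grm7 (r = 0.906), Ncald (0.906), Doc2b (0.899), Slc17a5 (0.897) and Gm10419 (0.896). The members themselves correlated with their own mean at 0.28 for Dcx to 0.89 for Mapt. Dcx and Map2, at 0.28 and 0.34, were thus among the least like this mean, as were Tubb3 (0.33) and Nefl (0.34). The mean includes each member itself, and likeness to the other members alone was not computed. Together the members held 1.5 to 1.64% of all counts in C and 1.37 to 1.38% in M. They held 1.40 to 1.52% in WT, 1.30 to 1.31% in dcKO vehicle and 1.10 to 1.35% in dcKO WNTi libraries.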

How the data were processed

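RNA-seq and H3K27me3 ChIP-seq files of mouse E17.5 cortex were analysed. The RNA files hold the raw read counts per Ensembl gene that the authors deposited, obtained with STAR on mm10 and featureCounts, with no normalization. The H3K27me3 files are the authors' broad peak lists, made by MACS2 per library (q-value limit 0.1, duplicates reduced to 1 tag, input of the same letter as background). Per the file headers they give a fold enrichment (a ratio over input) and a -log10 q-value for every peak. Versions of these tools are not given in the sources used here.

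Groups came from the letters and numbers of the sample titles. The 10 members and the gene lists were chosen with earlier results of these data known. The count test was that of edgeR 4.0.16 in R 4.3.3 (TMM, filterByExpr, robust quasi-likelihood test), run on the 7 untreated libraries by themselves and the 12 treated libraries together, and p-values were adjusted over all genes tested by Benjamini-Hochberg. Log2 CPM used a prior count of 2, and CPM per kb used the merged exons of GENCODE M21. Of the gene IDs, 36602 of 38355 and 48349 of 48709 had a symbol in a separate list of gene names. For H3K27me3, the highest fold enrichment within 2000 bp of a start, set to no enrichment without a peak, was tested with limma 3.58.1 on genes with a peak in at least 2 libraries. Named genes are the 10 members, the 3 of each related list and direction with the smallest p (a selection of these is printed), Smarcc1, Smarcc2 and Ttr, and the 5 genes most like the members.

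Alternatives were DESeq2 size factors, the DESeq2 1.42.0 test, no filter on low counts, the replicate number as a block, the lane as a block, only the groups compared, and each library left out. For peaks they were a q-value under 0.01, the whole gene body, peaks in at least 3 libraries, 500 bp of overlap, the block and each library left out. Added after the data were seen were a term for transcript length, a fit without the libraries labelled dcKO with Smarcc1 and Smarcc2 near the WT level, and a pair block across the experiments. The fits were tested on simulated data. Python 3.11.15 and pandas 2.3.3 served for the other steps.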

Additional observations from a re-analysis of the deposited data

Results flagged for a closer look

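In groups of 4 libraries, 8 of 40 sets of a member and a group held a value far from the other 3 by Dixon's test. Chance would flag about 1 in 20 independent sets. The members share libraries, so these sets are not independent, and an excess over chance was not tested. In the dcKO vehicle group, replicate 2 was the lowest library for Map1b (2440 CPM), Gap43 (441 CPM) and Nefm (78.8 CPM), and replicate 1 for Dcx (1914 CPM). In the dcKO WNTi group, replicate 2 was the highest library for Dcx (2414 CPM) and Map1b (2821 CPM). Among the untreated C libraries, replicate 4 was the highest for Map1b (3922 CPM) and replicate 3 for Tubb3 (1908 CPM). Replicate 2 of dcKO vehicle and of dcKO WNTi had Smarcc1 at 242 and 252 CPM, near the WT mean of 266 CPM, and its part in these values was not tested.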

How the results depend on the processing

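Of the members' values under an alternative, 755 kept their direction and side of the threshold, 64 turned sign (none of them past the threshold) and 17 became significant. The cause was not tested for any. With DESeq2's test, M against C gave 264 genes higher and 314 lower (5 members lower), dcKO vehicle against WT 85 and 35, WNTi against vehicle 174 and 165, and WNTi against WT 319 and 464 (2 members lower). Without a filter on low counts the numbers were 88 and 66, 0 higher, 15 and 5, and 26 and 32. With the replicate block, they were 0 higher, 4 and 1, 1 lower, and 64 and 125. The replicate numbers did not meet the limit for pairing within an experiment (r = -0.31 to -0.03 untreated, -0.18 to 0.40 treated), and 0 members were called with this block. With DESeq2 size factors, and with the 2 groups alone, dcKO vehicle against WT had 0 genes higher, and the 2 groups alone gave 0 lower for WNTi against WT. The lane block gave 0 genes in all 3 treated comparisons but moved Mapt to 0.0067 and Nefl to 0.052 in WNTi against vehicle and Tubb3 to 0.046 in WNTi against WT. Without the libraries with near-WT Smarcc1 and Smarcc2, there were 416 and 562 genes in dcKO vehicle against WT (1 member lower), 51 and 121 in WNTi against vehicle and 448 and 793 in WNTi against WT (2 members lower), and Gap43 and Nefm went to -0.090 and -0.083 in WNTi against vehicle. With the length term, M against C and dcKO vehicle against WT had 0 genes higher, WNTi against vehicle 0 lower and WNTi against WT 2 higher and 0 lower. It moved Nefm to 0.013 in M against C, and, in WNTi against vehicle, Dcx to 0.13, Map2 to 0.14, Tubb3 to -0.17, Gap43 to -0.030 and Nefm to -0.053, and Nefl to -0.017 in WNTi against WT. The difference between experiments of Map2 was 0.00061 with DESeq2 size factors and with the DESeq2 test.

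With each library left out, genes higher and lower ranged from 0 to 892 and 0 to 1102 in M against C (members lower 0 to 3), 0 to 222 and 0 to 340 in dcKO vehicle against WT, 0 to 143 and 0 to 277 in WNTi against vehicle (members 0 to 1) and 0 to 563 and 0 to 890 in WNTi against WT (members 0 to 2). In M against C, Tubb3 ranged from -0.035 to 0.035, Nefl from -0.079 to 0.17 and Nefm from -0.10 to 0.014. Tubb3 ranged from -0.18 to 0.030 in dcKO vehicle against WT, -0.011 to 0.11 in WNTi against vehicle and -0.13 to 0.086 in WNTi against WT. Nefl ranged from -0.16 to 0.077 in WNTi against vehicle and -0.074 to 0.16 in WNTi against WT, and Nefm from -0.028 to 0.10 in the former. The difference between experiments ranged from -0.19 to 0.17 for Dcx, -0.068 to 0.069 for Mapt, -0.084 to 0.030 for Map1b, -0.13 to 0.12 for Map2, -0.046 to 0.16 for Tubb3, -0.071 to 0.095 for Stmn2, -0.092 to 0.033 for L1cam, -0.17 to 0.088 for Nefl and -0.0082 to 0.12 for Nefm. At gene starts, genes with more H3K27me3 in K ranged from 0 to 55, the latter without K replicate 3, and Nefm from -0.33 to 0.68.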
